A study of Homo sapiens with 4 samples.

Results

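CD133-positive Huh7 cells were set against ALDH-positive Huh7 cells, the fractions that flow cytometry selected by either of a pair of markers used for stem-like liver cancer cells. The comparison asks whether both definitions gave alike cells. It used 2 of the 4 arrays of the study, and its value for a gene was the log2 level on the CD133+ array minus that on the ALDH+ array. Values were obtained for 18377 genes, and 11838 of them reached a floor of 4.98, the median of all log2 values, on the brighter array of the pair.

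All 4 fractions came from Huh7, an established human hepatocellular carcinoma line, and the labels name no treatment for any of them. One sort gave CD133+ and CD133- cells, and the other gave ALDH+ and ALDH- cells. Total RNA of each fraction was hybridised to 1 Affymetrix array, so no difference below has a replicate check, a p-value or an error, and the number of arrays limits the precision. The labels do not give the gates, the ALDH assay, how many CD133+ cells were also ALDH+, or whether the fractions came from separate cultures. Because CD133+ and ALDH+ cells came out of different sorts, an effect of the marker and an effect of the sort cannot be told apart in this difference. The difference between CD133- and ALDH- cells crosses the same sorts and shares no array with it, and is given beside it for most results.

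CD133, the product of PROM1, is a membrane glycoprotein of the microvilli and other protrusions of epithelial and progenitor cells. Aldehyde dehydrogenases oxidise aldehydes, those of the ALDH1A group also make retinoic acid, and a fluorescent ALDH substrate is widely used to sort stem-like tumour cells. Liver and intestine both arise from the endoderm and share transcription factors such as the HNF1 and HNF4 proteins, while CDX2 is a factor of the intestinal epithelium.

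Promoters of 5 genes are shown because the results turn on the groups they belong to: PROM1 itself, the intestinal genes SI and SLC26A3, and the replication genes CDC6 and PCNA. Each runs 5′ to 3′ on the strand of its gene, from 250 bases before to 50 bases after the annotated start, and was taken from RefSeq on build GRCh38.p14. The letters searched, on either strand, were those of an HNF1 core (GTTAAT), a CDX site (CCATAAA or CAATAAA), an E2F site (TTTCGCGC, TTTGGCGC or TTTCCCGC) or a CCAAT box (CCAAT). Capitals mark the HNF1 and CDX letters in the intestinal genes and the E2F and CCAAT letters in the replication genes. The promoters of PROM1 and SLC26A3 also hold CCAAT, left in lower case. A match is a description of the letters only.
PROM1, chr4:16083974-16084273, minus strand, no HNF1, CDX or E2F letters: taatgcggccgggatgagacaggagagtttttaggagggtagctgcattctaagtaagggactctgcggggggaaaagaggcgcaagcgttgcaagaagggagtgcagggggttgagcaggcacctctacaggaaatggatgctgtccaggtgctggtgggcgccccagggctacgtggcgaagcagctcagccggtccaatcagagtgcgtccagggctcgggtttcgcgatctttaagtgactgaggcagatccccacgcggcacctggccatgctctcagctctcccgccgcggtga
SI, chr3:165078447-165078746, minus strand, HNF1 core and CDX site: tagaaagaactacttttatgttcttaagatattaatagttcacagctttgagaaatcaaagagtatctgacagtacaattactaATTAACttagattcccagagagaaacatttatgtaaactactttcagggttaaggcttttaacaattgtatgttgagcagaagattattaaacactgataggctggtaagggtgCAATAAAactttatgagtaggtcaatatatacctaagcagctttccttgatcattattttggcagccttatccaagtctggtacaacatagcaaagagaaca
SLC26A3, chr7:107803174-107803473, minus strand, 2 HNF1 cores: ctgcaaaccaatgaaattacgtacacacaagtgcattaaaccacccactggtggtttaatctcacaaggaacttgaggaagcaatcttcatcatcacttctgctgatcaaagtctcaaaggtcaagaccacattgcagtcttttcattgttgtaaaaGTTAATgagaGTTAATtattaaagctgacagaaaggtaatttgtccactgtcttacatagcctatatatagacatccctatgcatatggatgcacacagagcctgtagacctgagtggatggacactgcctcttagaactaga
CDC6, chr17:40287629-40287928, plus strand, 1 E2F site and 3 CCAAT boxes: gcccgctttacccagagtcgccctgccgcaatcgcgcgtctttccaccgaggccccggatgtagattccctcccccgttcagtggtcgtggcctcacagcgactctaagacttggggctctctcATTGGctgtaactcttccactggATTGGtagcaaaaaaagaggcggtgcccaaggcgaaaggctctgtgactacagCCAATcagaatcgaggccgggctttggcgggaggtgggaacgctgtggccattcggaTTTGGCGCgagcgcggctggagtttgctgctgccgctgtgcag
PCNA, chr20:5126573-5126872, minus strand, 1 E2F site and 3 CCAAT boxes: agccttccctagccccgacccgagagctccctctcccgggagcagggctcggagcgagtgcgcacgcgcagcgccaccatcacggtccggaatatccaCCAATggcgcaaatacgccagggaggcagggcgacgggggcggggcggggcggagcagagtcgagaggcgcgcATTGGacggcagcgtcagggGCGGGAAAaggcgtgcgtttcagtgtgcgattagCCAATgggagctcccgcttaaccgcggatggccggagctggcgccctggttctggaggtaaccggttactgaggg

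Of the 11838 genes above the floor, 9462 had a promoter in the table. An E2F site lay in 62.5% of the 24 promoters of replication genes, against 4.57% of the promoters of genes above the floor and 2.79% of all 27305 promoters. The CCAAT box lay in 62.5% of them too, against 35.9%. Of 29 intestinal brush border, mucin and surface genes, 19 had a promoter in the table. An HNF1 core lay in 2 of the 19 (10.5%), against 3.65% of genes above the floor and 6.89% of all promoters. A CDX site also lay in 2 (10.5%), against 3.27% and 6.57%. SI is among these 19 and counts for both letters, and SLC26A3 is on neither list. Most of the 19 held no such letters. DPP4, CUBN and TSPAN8, list genes at least 2-fold higher in CD133+ cells, had promoters without HNF1 or CDX letters. Among the 43 promoters of genes at least 2-fold higher in CD133+ cells, 11.6% held an HNF1 core and 4.65% an E2F site, while 2.33% held a CDX site and 27.9% a CCAAT box, both below the share of all genes above the floor. GATA letters lay in 16.3% of these 43, against 5.07% of genes above the floor, and CHR letters in 16.3%, against 9.21%. TATA letters lay in 9.30%, against 6.14%, CRE letters in 4.65%, against 3.30%, and CArG letters in 0%, against 1.07%.

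The CD133+ and ALDH+ arrays differed at 2-fold in fewer genes than any other pair of the 4 arrays. Of the 11838 genes, 77 (0.650%) differed by at least 2-fold, 62 of them (0.524%) higher and 15 (0.127%) lower in CD133+ cells. Centring the differences on their median of 0.06 gave 47 higher and 23 lower genes. Each of the other 5 pairs was counted over the genes above its own floor. CD133+ and CD133- cells differed in 102 genes (0.880%), ALDH+ and CD133- cells in 126 (1.06%), CD133+ and ALDH- cells in 135 (1.16%), and ALDH+ and ALDH- cells in 187 (1.57%). The pair was not the closest by every measure: the SD of its differences over genes was 0.330, against 0.30 for CD133+ and CD133- cells, and 903 of its genes differed by at least 1.5-fold, against 537. The largest number, 357 genes (3.07%), separated CD133- from ALDH- cells, whose differences had an SD of 0.439.

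**Figure D1:**
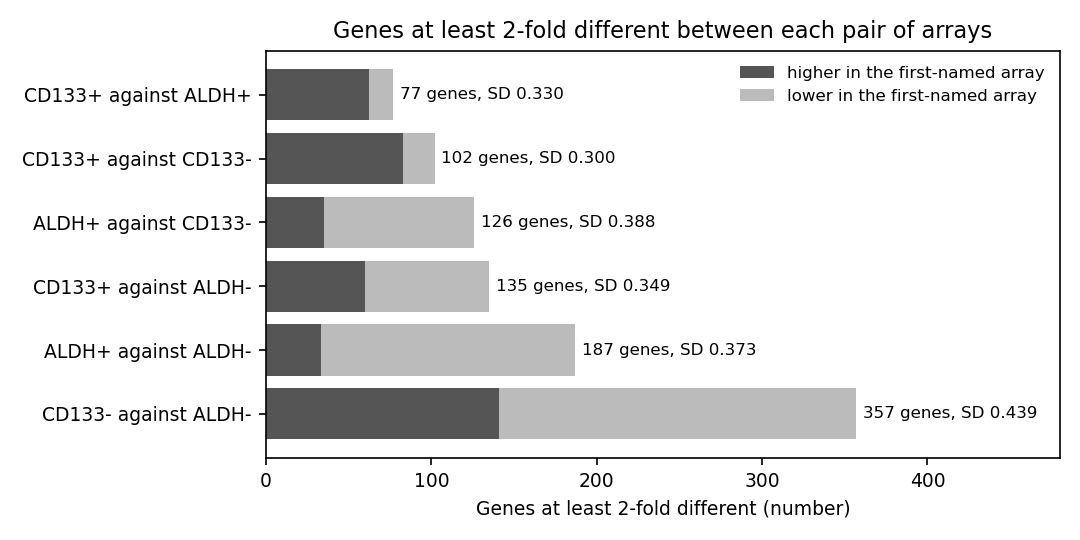
Number of genes at least 2-fold different between each pair of arrays, with the SD of the log2 differences over genes; dark bars count genes higher, light bars genes lower, in the array named first. CD133+ against ALDH+ has the shortest bar, with 77 genes, and CD133- against ALDH- the longest, with 357.

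PROM1 had a log2 level of 9.0 in CD133+, 7.11 in ALDH+, 5.32 in CD133- and 8.39 in ALDH- cells. It was 3.70-fold higher in CD133+ than in ALDH+ cells, a difference of 1.89. The ALDH+ level lay above that of CD133- cells but below that of ALDH- cells, so the cells sorted by ALDH held PROM1 transcript in both fractions.

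Aldehyde dehydrogenase transcripts did not separate the fractions. ALDH1A1, the isoform most often linked to the ALDH assay, had levels of 11.47 in CD133+, 11.14 in ALDH+, 11.47 in CD133- and 11.10 in ALDH- cells. Of 15 ALDH genes above the floor, 10 were higher and 5 lower in CD133+ cells, with a median difference of 0.03 and none at 2-fold; over all genes 57.4% were higher. The extremes were ALDH5A1, of GABA breakdown, at 0.72 and ALDH1L1, of folate metabolism, at -0.46. ALDH2, the mitochondrial enzyme of ethanol breakdown, differed by 0.01. Sorting by ALDH commonly reads enzyme activity, so these levels do not check the ALDH labels.

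The largest difference was that of ANXA3, an annexin that binds calcium and phospholipid, with levels of 7.86 in CD133+, 5.90 in ALDH+, 5.79 in CD133- and 7.06 in ALDH- cells. It was 3.90-fold higher in CD133+ than in ALDH+ cells. ANKRD1, a nuclear repeat protein and target of the YAP coactivator, had levels of 7.90, 6.31, 6.55 and 7.31 in the same order and was 3.0-fold higher. ANXA3 and ANKRD1 were thus highest in CD133+ cells and next highest in ALDH- cells. SPP1, the secreted phosphoprotein osteopontin, had levels of 6.72, 5.14, 6.16 and 5.80 and was 3.0-fold higher. AKR1B10, an aldo-keto reductase raised in many liver tumours, had levels of 6.70, 5.12, 5.38 and 6.32 and was 2.99-fold higher. FSTL1, a secreted follistatin-like glycoprotein, had levels of 7.48, 6.11, 5.63 and 6.22 and was 2.60-fold higher. Each of these 5 genes was higher in CD133+ cells than on the other 3 arrays.

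A zinc exporter and a respiratory chain subunit were also among the largest differences. SLC30A1, the zinc exporter of the plasma membrane, had levels of 6.57 in CD133+, 4.83 in ALDH+, 5.79 in CD133- and 4.92 in ALDH- cells, so it was at least 3.01-fold higher in CD133+ cells when its ALDH+ level was counted at the floor. It was dim in both ALDH fractions. COX7B, a subunit of cytochrome c oxidase, had levels of 7.25, 5.70, 7.44 and 7.10 and was 2.93-fold higher. The ALDH+ array stood alone for COX7B, below the other 3.

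Other genes of the 15 with the largest positive differences were dim in ALDH+ cells, and the folds against the floor are lower bounds. MATN3, a matrix protein of cartilage, was at least 2.74-fold higher, MYOF, a membrane repair protein of the ferlin family, at least 2.44-fold, and NTS, the precursor of the peptide neurotensin, at least 2.07-fold. For ZNF654, a zinc finger gene, and SULT1C4, a sulfotransferase, the bounds were 1.30-fold and 1.16-fold, below 2-fold. Against the floor, 46 of the 62 higher genes and 5 of the 15 lower ones kept a 2-fold difference.

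The 15 genes lower in CD133+ cells were mostly dim, with the CD133+ level below the floor in 10. Over all 11838 genes the dimmer array of the pair was below the floor in 990. Of the 15, 6 were non-coding RNAs and 8 protein-coding, where 11289 of the 11838 genes were protein-coding. FOSB, a FOS family transcription factor, had levels of 5.72 in CD133+, 7.0 in ALDH+, 5.43 in CD133- and 6.95 in ALDH- cells and was 2.43-fold lower in CD133+ cells. LIF, a cytokine of the interleukin-6 family, had levels of 5.25, 6.25, 5.77 and 6.66 and was 2.0-fold lower. FOSB and LIF were higher in both ALDH fractions than in both CD133 fractions. APOA1, the main protein of high-density lipoprotein, had levels of 7.72, 8.79, 8.50 and 8.54, so CD133+ cells alone were low, 2.10-fold below ALDH+ cells. A further APOA1 probe gave a difference of -0.80.

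Several of the remaining lower genes cannot be read one by one. SNORA80E, a small nucleolar RNA that guides RNA modification, had levels of 6.96, 8.18, 6.79 and 8.90, low in both CD133 fractions. It lies within a host transcript, and whether the probe separates them was not tested. CIRBP-AS1 and PRDX6-AS1 are antisense to protein-coding genes, and HSP90B3P is a pseudogene whose sequence resembles its parent's. Against the floor CIRBP-AS1 was at least 1.31-fold, PRDX6-AS1 at least 1.02-fold and HSP90B3P at least 1.32-fold lower in CD133+ cells. LPA, the gene of apolipoprotein(a), whose sequence repeats that of plasminogen, was at least 1.15-fold lower. RNU12, an RNA of the minor spliceosome, had levels of 5.10 and 6.19 in CD133+ and ALDH+ cells. The other 5, SNORD14E, ZNF485, RBMXL2, WFIKKN1 and LOC100127955, differed by -1.23 to -1.02 with CD133+ levels below the floor.

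**Figure D2:**
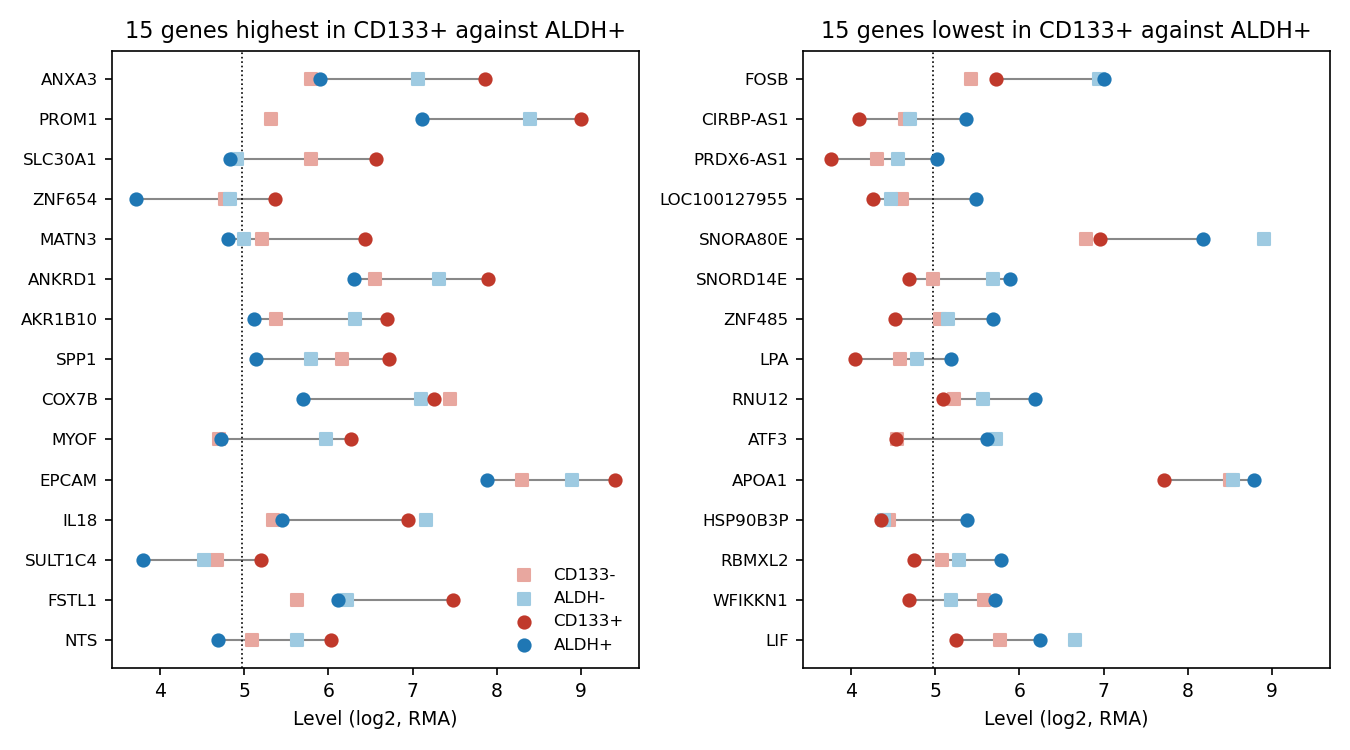
Log2 level on each of the 4 arrays for the 15 genes most above and the 15 most below 0 in CD133+ minus ALDH+; circles are the positive fractions, joined by a line, squares the negative fractions, and the dotted line is the floor of 4.98. ANXA3 and PROM1 lead the higher genes, and the CD133+ circle lies left of the floor for 10 of the 15 lower genes.

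Of the 77 genes that separated the positive fractions, 39 (50.6%) differed in the same direction between the negative fractions, where 61.0% of all genes did. At 1.5-fold 584 of 903 genes (64.7%) did. Over the 11838 genes the differences of the positive and of the negative pair had a Pearson r of 0.155 and a Spearman rho of 0.257, across genes, which are not independent replicates. Of the 62 genes higher in CD133+ than in ALDH+ cells, 22 (35.5%) were at least 2-fold lower in CD133- than in ALDH- cells, where 1.56% of all genes were. Only 2 of the 62, ORM2 and ZNF724, were at least 2-fold higher there, where 1.13% of all genes were. Another 26 lay within 1.5-fold, where 86.1% of all genes did, and 8 were at least 1.5-fold higher, 12.9% of the 62 where 8.65% of all genes were. Of the 15 lower genes, 12 were also lower in CD133- than in ALDH- cells, where 42.9% of all genes were, 3 of them by at least 2-fold. Within 1.5-fold lay 10 of the 15. At 1.5-fold 144 genes were higher in both CD133 fractions and 24 lower in both, against 100 that were higher in CD133+ and lower in CD133- cells and 13 the other way round.

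Both differences ran the same way in ORM2, an acute-phase plasma protein nearly identical to ORM1, with levels of 7.51 in CD133+, 6.29 in ALDH+, 8.21 in CD133- and 6.33 in ALDH- cells. SNRPE, a core protein of spliceosomal ribonucleoproteins, was also higher in both CD133 fractions, with differences of 0.97 and 1.33. CCNE2, the cyclin E2 of S-phase entry, had differences of 1.03 and 0.94, and its ALDH+ level of 4.92 lay under the floor. In these genes both CD133 fractions lay above both ALDH fractions. The same order turned round held for ATF3, a stress-induced transcription factor, with levels of 4.54, 5.62, 4.55 and 5.72, and at least 1.56-fold lower in CD133+ than in ALDH+ cells. PPARGC1A, the coactivator of mitochondrial and fasting genes, lay at 4.19, 5.03, 4.29 and 5.15, too near the floor for a fold.

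The differences were opposite in PROM1 (1.89 between the positive and -3.07 between the negative fractions), in IL18, an interleukin of epithelial cells (1.5 and -1.81), and in ANXA1, an annexin of inflammation control (1.27 and -2.19). GSTA2, a glutathione transferase, had differences of 1.33 and -2.56, but its probe may not separate it from its near copies and its ALDH+ level of 4.28 and CD133- level of 3.64 were under the floor. In these genes the CD133+ and ALDH- arrays were the brighter ones. FBN1, the fibrillin of microfibrils, and SLC1A3, a glutamate carrier, chosen after their values were seen, are further examples. FBN1 had levels of 6.31 in CD133+, 5.0 in ALDH+, 4.67 in CD133- and 5.76 in ALDH- cells, and SLC1A3 of 6.59, 5.51, 5.28 and 6.37.

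**Figure D3:**
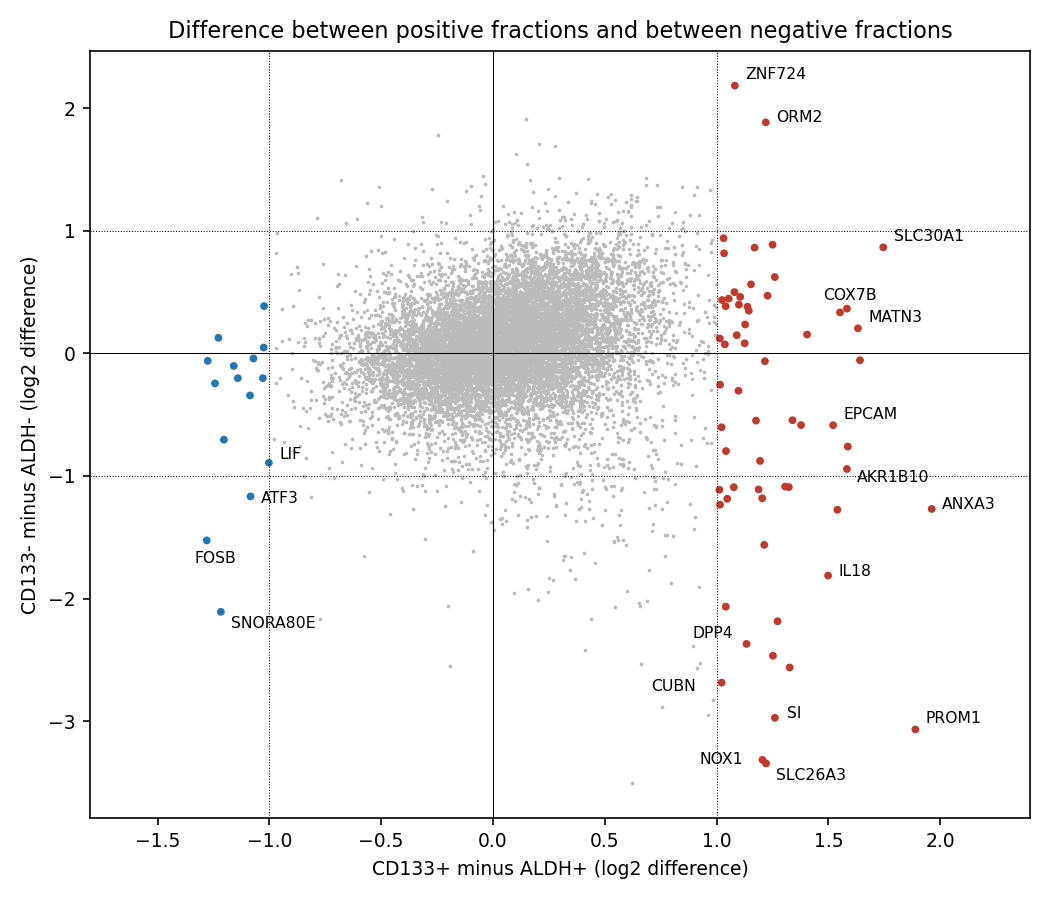
Each point is 1 of 11838 genes: the x axis is the log2 difference CD133+ minus ALDH+, the y axis CD133- minus ALDH-, and dotted lines mark 2-fold. Of the 62 genes right of 1 (red) 22 lie below -1 and 2 above 1; of the 15 genes left of -1 (blue) 12 lie below 0.

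Of the 22 genes with opposite differences at 2-fold, 6 were on an intestinal list, namely CDH17, CUBN, DPP4, SI, SLC26A3 and TSPAN8, and 16 were not. They were 18.8% of the 32 intestinal genes above the floor, where 0.186% of all genes were opposite. Of the positive pair, CUBN reached the floor on the CD133+ array only, at 5.74 against 4.72 in ALDH+ cells. Its level was 3.89 in CD133- cells and highest in ALDH- cells, at 6.58. The intestinal and enterocyte lists were chosen with earlier results of these data known, so the shares in this paragraph are descriptions only. Of 12 enterocyte markers above the floor, 10 were higher and 2 lower in CD133+ than in ALDH+ cells, where 57.4% of all genes were higher. Their median difference was 0.63 beside 0.06 over all genes, and 3 reached 2-fold, where 0.524% of all genes did. Between the negative fractions all 12 were lower in CD133- cells, where 42.9% of all genes were, with a median of -1.41. The levels ran from ALDH- through CD133+ and ALDH+ down to CD133- in 8 of the 12 markers, an order that 4.01% of all genes had. The positive fractions therefore lay between the negative ones in these 8 markers.

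SI, the sucrase-isomaltase of the brush border, had levels of 7.56 in CD133+, 6.30 in ALDH+, 5.11 in CD133- and 8.08 in ALDH- cells and was 2.4-fold higher in CD133+ than in ALDH+ cells. CDH17, the liver-intestine cadherin, had levels of 9.44, 8.19, 7.35 and 9.82 and was 2.38-fold higher. SLC26A3, the chloride and bicarbonate exchanger of the colon, had levels of 6.48, 5.26, 4.15 and 7.5 and was 2.33-fold higher. SI and SLC26A3 are the genes whose promoters are printed above. MUC13, a membrane mucin, differed less between the positive fractions, at 9.38 and 8.76, than between the negative ones, at 6.85 and 10.36. CDX2 had levels of 8.53, 7.90, 7.63 and 8.58, with ALDH- and CD133+ cells close together.

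The wider intestinal lists were split. Of 14 brush border genes, 11 were higher in CD133+ cells, where 57.4% of all genes were, and 3 reached 2-fold, where 0.524% did. Their median was 0.33, but without SI it was 0.10. DPP4, a surface dipeptidase, was 2.19-fold higher at levels of 8.89 and 7.76, and CUBN, the receptor of intrinsic factor, at least 1.69-fold. LCT, the lactase, differed by 0.96 and MYO1A, a brush border myosin, by 0.80, while ANPEP, ALPI, EPS8 and USH1C lay within 0.10 of 0. Of 15 mucin and surface genes 9 were higher, near the 57.4% of all genes, with a median of 0.08. TSPAN8, a tetraspanin, was 2.5-fold higher at 8.46 and 7.14, and TFF1 and AGR2, secreted with mucins, differed by 0.92 and 0.91, whereas TFF3 and MUC1 were at -0.14 and MUC3A was lowest at -0.31. All 14 brush border genes and all 15 mucin and surface genes were lower in CD133- than in ALDH- cells, where 42.9% of all genes were. Intestinal and hepatic transcription factors had a median of -0.09 over 21 genes, with HNF4G at 0.78 highest.

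**Figure D4:**
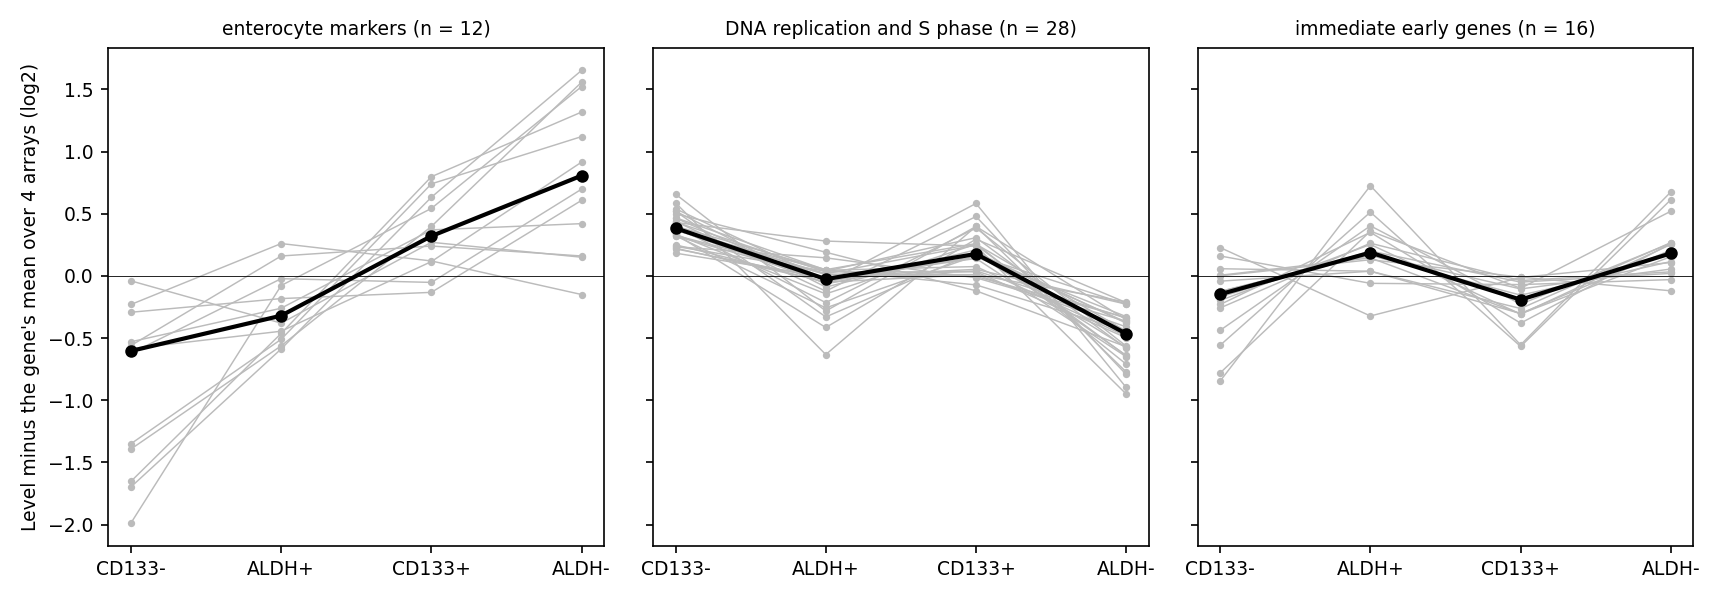
Log2 level of each list member minus that gene's mean over the 4 arrays, for enterocyte markers, replication genes and immediate early genes; thin lines are genes, thick lines the median. Enterocyte markers climb from CD133- through ALDH+ and CD133+ to ALDH- cells, replication genes are lowest in ALDH- cells, and immediate early genes are higher in both ALDH fractions.

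Surface markers of liver cancer stem cells were higher in CD133+ than in ALDH+ cells as a group, with PROM1, on which CD133+ cells were sorted, among them. Of 10 above the floor, 8 were higher and 2 lower, where 57.4% of all genes were higher, with a median of 0.42, or 0.41 without PROM1. The median was 0.25 after a second quantile normalization and 0.08 with no floor. EPCAM, an epithelial adhesion protein, had levels of 9.40 in CD133+, 7.88 in ALDH+, 8.30 in CD133- and 8.89 in ALDH- cells and was 2.87-fold higher. Its other probe gave 0.80. ABCG2, the efflux pump of side population cells, differed by 0.90, CD47, the surface inhibitor of phagocytosis, by 0.51 and CD24 by 0.43, while ICAM1 was at -0.25 and LGR5 at -0.16. Between the negative fractions 8 of the 10 were lower in CD133- cells, where 42.9% of all genes were, with a median of -0.37. The median over 6 pluripotency factors was -0.04.

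Of 10 fetal liver and progenitor genes, 6 were higher in CD133+ cells, near the 57.4% of all genes. SPP1 and SOX4 reached 2-fold, where 0.524% of all genes did. SOX4, a transcription factor of progenitor cells, had levels of 7.79, 6.65, 7.08 and 6.70, highest in CD133+ cells. AFP, the fetal serum protein, differed by 0.14. The list's median of 0.16 was -0.00 after a second quantile normalization.

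Lists of secreted liver proteins had medians below that of all genes. Of 11 apolipoprotein and lipoprotein assembly genes, the median was -0.30, with 9 lower and 2 higher, where 42.6% of all genes were lower. APOB, the backbone of very low density lipoprotein, had levels of 9.50 and 10.07, and APOC3, an inhibitor of lipoprotein lipase, 6.98 and 7.5. MTTP, which loads lipid onto APOB, went against the others at 9.52 and 8.91. Between the negative fractions the median was -0.08.

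In the list of 16 plasma carrier and acute-phase genes the median was -0.11, with 11 lower, where 42.6% of all genes were, and 5 higher. ORM2 was the only member at 2-fold, higher in CD133+ cells, where 0.524% of all genes were at least 2-fold higher. Between the negative fractions the list ran the other way, with a median of 0.41 and 12 of 16 higher, where 57.1% of all genes were. AHSG, the carrier fetuin-A, differed by -0.97. Coagulation and complement genes had a median of -0.10 over 22 members, and 0.11 between the negative fractions. PLG, plasminogen, had levels of 8.23 in CD133+, 9.20 in ALDH+, 9.45 in CD133- and 9.41 in ALDH- cells, so CD133+ cells alone were low. FGG, a fibrinogen chain, went the other way by 0.96. Urea cycle and amino acid breakdown genes had a median of -0.23 over 8 members, and 0.08 between the negative fractions. ARG1, the last enzyme of the cycle, was lowest at -0.70. Fatty acid synthesis and droplet genes were lower in 14 of 19, where 42.6% of all genes were, with a median of -0.17 and none at 2-fold. Their median was 0.25 between the negative fractions.

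Detoxification and efflux lists differed in size and direction. Of 23 glutathione transferases and targets of the oxidative stress factor NRF2, 18 were higher and 5 lower, where 57.4% of all genes were higher, with a median of 0.35. AKR1B10 and GSTA2 reached 2-fold, where 0.524% of all genes were at least 2-fold higher. Against the floor GSTA2 was at least 1.54-fold higher, below 2-fold. GCLC, the catalytic subunit of glutathione synthesis, had levels of 7.23 and 6.23, just short of 2-fold. MGST3, a microsomal glutathione transferase, differed by 0.75, while NQO1, a classical NRF2 target, differed by 0.40 and HMOX1, heme oxygenase, by -0.15. The negative fractions gave a median of -0.12 for the list.

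Of 12 ABC transporters, 11 were higher in CD133+ cells, where 57.4% of all genes were, with a median of 0.22 and none at 2-fold. Cytochrome P450 and alcohol dehydrogenase genes had a median of 0.11 over 9 members, or 0.03 with dim values raised to the floor. ABCC2, the canalicular export pump, had levels of 7.83 in CD133+, 7.12 in ALDH+, 7.14 in CD133- and 8.58 in ALDH- cells, and ABCB1, the multidrug pump, differed by 0.56. The negative fractions had a median of -0.21 for the ABC list and -0.24 for the P450 list. Amino acid transporters had a median of 0.28 over 18 members, and SLC1A1, a glutamate and cysteine carrier, was 2.30-fold higher at 6.57 and 5.37. NOX1, the colonic superoxide-producing oxidase, had levels of 7.09, 5.89, 4.67 and 7.98 and was 2.31-fold higher, again with ALDH- cells highest. Of the 6 NADPH oxidase genes above the floor, NOX1 included, 2 were higher and 4 lower, with a median of -0.11.

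Replication genes differed far less between the positive fractions than between the negative ones. Of 28 genes of DNA replication and S phase, 23 were higher and 5 lower in CD133+ than in ALDH+ cells, where 57.4% of all genes were higher. Their median was 0.21, and 1, CCNE2, reached 2-fold, where 0.524% of all genes did. CCNE2 lay under the floor in ALDH+ cells, at 4.92, and was at least 1.95-fold higher against the floor, below 2-fold. In CD133- against ALDH- cells all 28 genes were higher, where 57.1% of all genes were, with a median of 0.91. Of them 10 were higher by at least 2-fold, where 1.13% of all genes were. PCNA, the sliding clamp of DNA polymerases, had levels of 8.62 in CD133+, 7.98 in ALDH+, 8.41 in CD133- and 7.14 in ALDH- cells. CDC6, which loads the replicative helicase, had levels of 8.41, 7.73, 8.67 and 7.24. In PCNA and CDC6, whose promoters with E2F and CCAAT letters are printed above, the ALDH- array was the low one. MCM6, a helicase subunit, differed by 0.71, while MCM2, MCM5 and MCM7 of the same complex lay between -0.02 and 0.03. After a second quantile normalization the list's median for the positive fractions was 0.07, and it was 0.07 with loess.

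Mitotic genes had a median of -0.02 over 28 members between the positive fractions, against 0.45 between the negative ones. MAD2L1, of the spindle checkpoint, differed by 0.82 and CENPF, a kinetochore protein, by -0.83. Histone genes, whose probes may not separate near-identical copies, had a median of -0.04 over 30 members, against 0.57. Cholesterol genes had a median of -0.02 over 17 members, while all 17 were higher in CD133- than in ALDH- cells, where 57.1% of all genes were.

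Immediate early genes, which growth factors and stress switch on quickly, were lower in CD133+ than in ALDH+ cells. Of 16 above the floor, 15 were lower, where 42.6% of all genes were, and 1, MYC, was higher, with a median of -0.32. FOSB and ATF3 reached 2-fold, where 0.127% of all genes did. ATF3 lay under the floor in CD133+ cells, at 4.54 against 5.62 in ALDH+ cells, and was at least 1.56-fold lower. NR4A1, an orphan nuclear receptor, differed by -0.72, DUSP1, a phosphatase that turns off MAP kinases, by -0.63, JUN by -0.56 and FOS by -0.46. In CD133- against ALDH- cells 13 of the 16 were lower, where 42.9% of all genes were, with a median of -0.27. The lower levels thus lay in both fractions of the CD133 sort, and sort and marker cannot be told apart for them. The median was -0.46 after a second quantile normalization and -0.45 with loess.

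Other stress lists differed less. Heat shock proteins were higher in 11 of 12, where 57.4% of all genes were, with a median of 0.19 and none at 2-fold. The median was 0.08 with loess and 0.35 between the negative fractions. DNAJA1, a cochaperone, differed by 0.58. Unfolded protein and amino acid stress genes had a median of 0.19 over 23 members, with ASNS, asparagine synthetase, at 0.92 and DDIT3, the stress factor CHOP, at -0.72.

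Matrix, adhesion and TGF-beta genes included several of the larger differences. Of 19 TGF-beta and BMP pathway genes, 16 were higher and 3 lower, where 57.4% of all genes were higher, with a median of 0.27 and none at 2-fold. The median was 0.15 after a second quantile normalization, 0.16 with loess, 0.40 over probe means and 0.10 between the negative fractions. TGFB2, a ligand, had levels of 6.59 and 5.89 and BMP4, another ligand, 5.74 and 5.15. VIM, an intermediate filament of mesenchymal cells, had levels of 9.51 in CD133+, 8.59 in ALDH+, 8.48 in CD133- and 8.62 in ALDH- cells, so CD133+ cells alone were high. ZEB1, a repressor of epithelial genes, went the other way at 4.36 and 5.15, at least 1.12-fold. The epithelial-mesenchymal list as a whole was split, 8 higher and 7 lower, with medians of 0.18 and, between the negative fractions, -0.23. COL12A1, a collagen of fibril surfaces, was at least 1.87-fold higher in CD133+ cells, and the 16 collagen and matrix genes had a median of 0.06.

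Further lists were written after the values were seen, so their counts, set beside 57.4% higher over all genes, are descriptions only. Targets of YAP were higher in 13 of 16, with a median of 0.27, and of -0.19 between the negative fractions, led by ANKRD1 and by AJUBA, a LIM protein of cell junctions, at 0.94, while CCN2 differed by 0.12 and CCN1 by -0.27. Actin and smooth muscle genes were higher in 13 of 14, with a median of 0.27. TAGLN, an actin-binding protein, was 2.18-fold higher at 6.21 and 5.09, and TPM1, a tropomyosin, differed by 0.78. Annexins were higher in 8 of 10, with a median of 0.43, ANXA2 at 0.65 and ANXA6 at -0.50. Metallothioneins had a median of 0.03 over 8 members and zinc transporters of 0.09 over 19, near the 0.06 of all genes.

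Mitochondrial ribosomal proteins, also listed after the values were seen, were higher in 51 of 72, where 57.4% of all genes were, with a median of 0.24. Of the 72, MRPL15 and MRPS27 reached 2-fold at 1.15 and 1.04, where 0.524% of all genes were at least 2-fold higher. TMEM70, an assembly factor of ATP synthase named after its values were seen, was 2.4-fold higher, with levels of 7.14 in CD133+, 5.88 in ALDH+, 7.14 in CD133- and 6.52 in ALDH- cells. Respiratory chain subunits, a list that does not hold COX7B, were higher in 21 of 27, with a median of 0.21. Both lists had like medians between the negative fractions, 0.27 and 0.28, so the shift lay in both fractions of the CD133 sort. With loess the medians of the positive fractions were 0.11 and 0.04. Level moved with the difference over all genes: with the genes cut into 5 equal groups by level, the median was -0.09 in the dimmest and 0.15 in the brightest group, and -0.02 and 0.16 between the negative fractions. The part of this trend in the medians of the lists was not tested beyond the loess values.

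**Figure D5:**
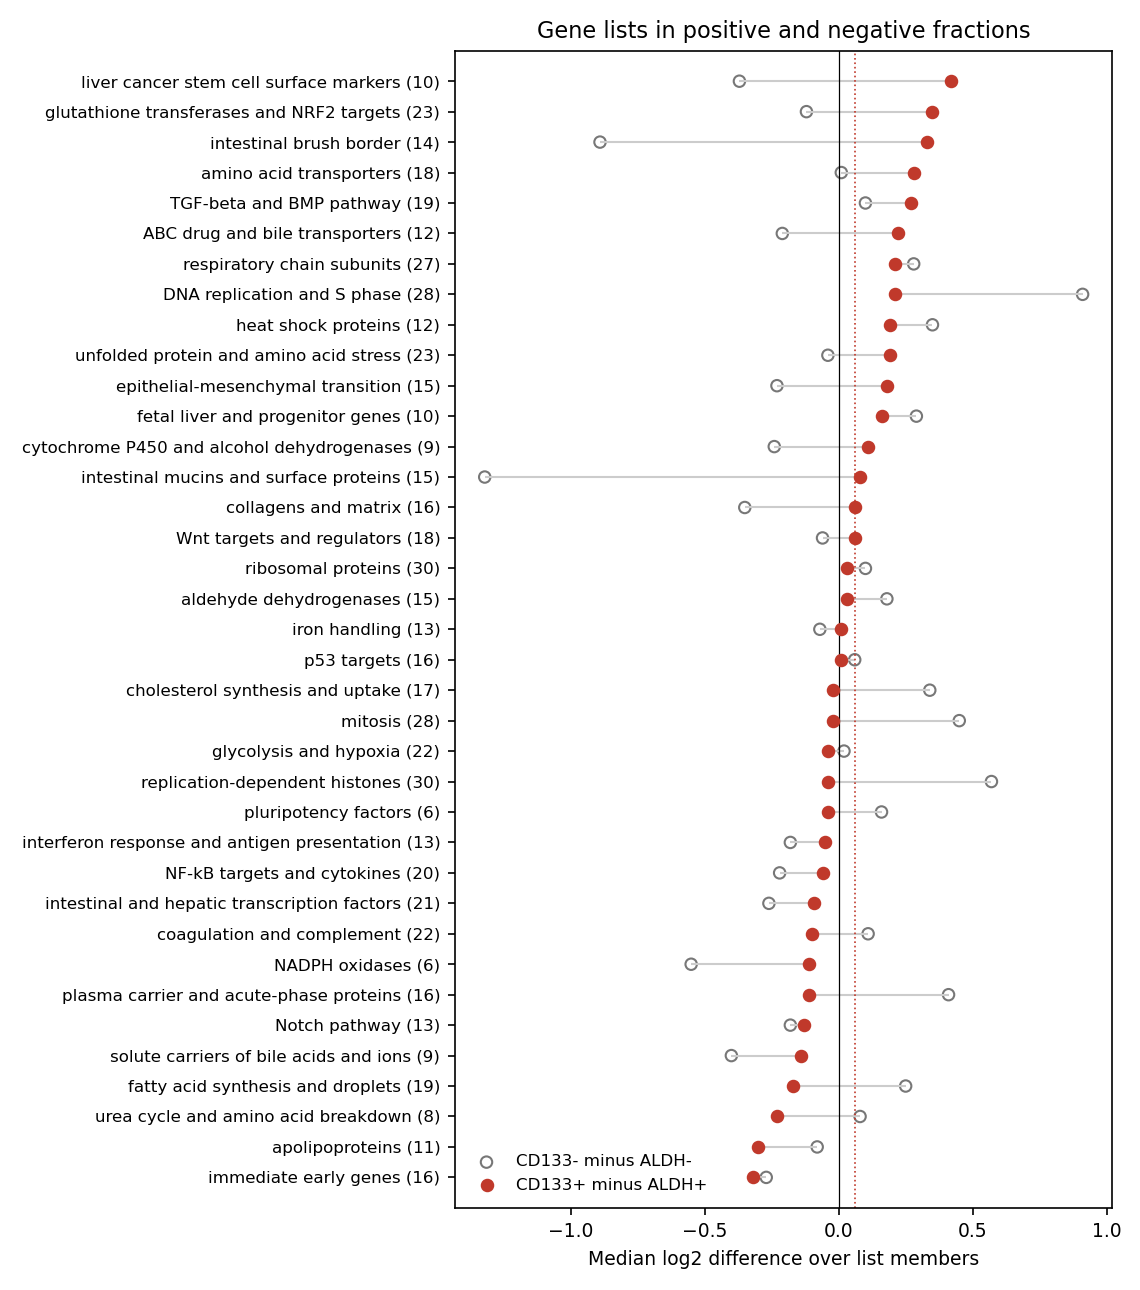
Median log2 difference of each gene list with at least 6 members above the floor (number in brackets), cell type markers and lists written afterwards not plotted; filled points are CD133+ minus ALDH+, open points CD133- minus ALDH-, and the dotted line is the median over all genes, 0.06. Filled points run from -0.32 for immediate early genes to 0.42 for stem cell surface markers, and open points spread wider, from -1.32 to 0.91.

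The remaining lists had medians between -0.14 and 0.06, beside 0.06 over all genes. Wnt targets and regulators stood at 0.06, p53 targets at 0.01, iron genes at 0.01, ribosomal proteins at 0.03, glycolysis and hypoxia genes at -0.04, interferon genes at -0.05, NF-kB targets at -0.06, NADPH oxidases at -0.11, Notch genes at -0.13 and solute carriers of bile acids and ions at -0.14. Single members differed more, as TFRC, the transferrin receptor, at 0.80, SESN1, a p53 target that restrains growth signalling, at 0.71 and ALDOC, an aldolase of glycolysis, at -0.91.

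Many markers of other cell types lay below the floor. Hepatocyte markers had a median of -0.01 over 11 members and cholangiocyte markers of 0.36 over 5, led by SPP1. Of 13 leukocyte markers, 6 were above the floor with a median of -0.37, and the pan-leukocyte gene PTPRC lay at 2.45 and 2.64. No red cell marker and only 2 of 11 endothelial markers reached the floor. Of 12 fibroblast and stellate markers 6 did, with a median of -0.02. The transcripts are those of bulk fractions, in which fewer cells of a kind and less RNA per cell cannot be told apart.

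By RNA class, 11289 protein-coding genes had a median difference of 0.07, 199 long non-coding RNAs -0.15 and 37 microRNA genes -0.30. The lowest median was that of 11 small nuclear RNAs, -0.48, with 10 lower, where 42.6% of all genes were. Of the microRNA genes 29 were lower and 8 higher in CD133+ cells, beside the same 42.6% lower over all genes. None of the microRNA genes reached 2-fold, where 0.650% of all genes did. Small nucleolar RNAs had a median of 0.06 over 84 genes. Long non-coding RNAs had a median of -0.03, microRNA genes of -0.14 and small nuclear RNAs of -0.40 between the negative fractions. With genes cut into 5 equal groups by gene length, the median was -0.09 in the shortest and 0.14 in the longest group. The shortest group held 10 of the 15 lower genes. The part of length and level in the class medians was not tested.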

How the data were processed

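RNA of 4 sorted Huh7 fractions was measured on 1 array each. Deposited were log2 values. The submitters' processing notes name RMA, robust multi-array averaging, as the method, and the range of 0.556 to 13.5 gave the scale. Software versions and the genome build of the probes are not given in the sources used here, so no probe coordinates are given. RMA draws the arrays towards one distribution, which hides shifts shared by most genes and compresses differences of dim probes.

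Of 28869 probes, 19310 had 1 gene symbol in the platform annotation, 1752 had several and 7807 were not listed. Each gene was read from its brightest probe by mean over the arrays, which left 18377 genes, 685 with more than 1 probe, and 19279 of the probes matched a gene of the RefSeq table of GRCh38.p14. Median log2 values per array ran from 4.92 to 5.04. Log2 values were subtracted between arrays, and genes were counted at 2-fold where the brighter array reached the floor of 4.98, with no test. A fold given as "at least" has the dimmer level raised to the floor. The subtraction and counting were tested on simulated data.

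Named were PROM1 and the ALDH genes, the 15 largest differences each way, up to 4 members of a list at 2-fold or else its 2 largest, and the 6 largest genes that went the same or opposite ways in the negative fractions. Other genes named were chosen after their values were seen. The members and lists were chosen with earlier results of these data known. Promoters of 300 bases were searched on both strands. Alternatives were a threshold of 1.5-fold, leaving out the floor, raising it to the 75th percentile (6.48), values raised to the floor, the mean over probes, centring, a second quantile normalization and loess (span 0.4); leaving out a list's largest member was added after the data were seen. Python 3.11.15, numpy 2.4.6, pandas 2.3.3, statsmodels 0.14.6 and matplotlib 3.10.9 were used.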

Additional observations from a re-analysis of the deposited data

Results flagged for a closer look

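The difference between the positive fractions and the difference between the negative fractions ran in opposite directions for 22 genes, which were at least 2-fold higher in CD133+ than in ALDH+ cells and at least 2-fold lower in CD133- than in ALDH- cells. With 1 array a fraction this contrast between the differences was not tested. The number was 13 to 24 over the other floors and normalizations, and 100 genes did so at 1.5-fold, where 144 were higher in both differences.

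Of 47 lists with at least 6 members above the floor, 23 had medians of opposite sign in both differences, where 61.0% of all genes went the same way. A sign tells little where a median is near 0, as in the 19 lists within 0.1 of 0. Both medians were at least 0.3 in size for 3 lists with at least 10 members, and this was not tested. Intestinal brush border genes had 0.33 between the positive and -0.89 between the negative fractions. Liver cancer stem cell surface markers had 0.42 and -0.37. Enterocyte markers had 0.63 and -1.41.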

How the results depend on the processing

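No paired analysis was possible because each fraction had 1 array, and the replicate spread is therefore unknown. All 48 named genes at 2-fold kept their direction under the 5 settings recomputed for them, and 32 (values raised to the floor) to 47 (mean over probes) kept 2-fold. The 62 genes higher in CD133+ cells became 639 at 1.5-fold and 34 with the floor at the 75th percentile. The 15 lower genes became 264 at 1.5-fold, 30 with no floor, 3 with the higher floor, 5 with values raised to the floor and 23 when centred. The 39 of 77 genes (50.6%) going the same way in the negative fractions became 584 of 903 (64.7%) at 1.5-fold, 16 of 37 (higher floor) and 23 of 51 (raised values). Brush border genes moved from a median of 0.33 to 0.07 with no floor, 0.10 with the higher floor and 0.10 without SI. Stem cell surface markers moved from 0.42 to 0.08 with no floor, 0.25 after quantile normalization and 0.27 with loess. With the higher floor, mucin and surface genes moved to 0.78 and apolipoproteins to -0.18. Quantile normalization and loess both gave 0.07 for replication genes, and -0.46 and -0.45 for immediate early genes.

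Among lists with a median at least 0.1 from 0, signs turned for solute carriers of bile acids and ions (0.03 with the higher floor, 0.02 over probe means), NADPH oxidases (0.43) and leukocyte markers (0.05), both with the higher floor, and fetal liver genes (-0.00 after quantile normalization, -0.01 with loess). Of the 19 lists with a median within 0.1 of 0, 12 turned sign under at least 1 alternative. The cause was not tested beyond the change of genes that a floor makes. Dim genes are a further limit: the CD133+ level of 10 of the 15 lower genes was under the floor.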

Other observations

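Probes that the annotation pairs with no gene symbol or with several were not used above. There were 2970 of them at or above the floor. Between CD133+ and ALDH+ cells 76 of them (2.56%) differed at 2-fold, 51 upwards and 25 downwards in CD133+ cells, and 2.26% did between the negative fractions.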
